A study of Homo sapiens with 9 samples.

Results

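The genes described here are 38 members of the ATF4 pathway, the transcription programme with which human cells answer a shortage of amino acids and other stress. They were taken by symbol from the 23610 genes of an RNA-seq table of GIST-T1, a cell line established from a human gastrointestinal stromal tumour (GIST). The 9 libraries were made from polyA RNA. By their labels, 3 came from cells with an sgRNA against ETV1, 3 from cells with an sgRNA against HAND1, and 3 from cells with a control sgRNA against Luciferase. ETV1 and HAND1 encode transcription factors of GIST cells. No other allele, agent or time is labelled, and all libraries come from this 1 cell line. Whether replicates are separate cultures is not labelled, so the p-values reflect how far these libraries spread, and that spread may be technical.

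ATF4 is a bZIP transcription factor whose protein level is set largely by translation. Amino acid shortage, endoplasmic reticulum stress, haem shortage or double-stranded RNA activates kinases that phosphorylate the initiation factor eIF2. General translation then falls while the ATF4 reading frame is translated more, so the ATF4 transcript is a limited readout of ATF4 activity. ATF4 protein binds the C/EBP-ATF response element (CARE), usually with a C/EBP partner, and drives genes for amino acid synthesis, amino acid uptake, mitochondrial one-carbon metabolism and tRNA charging, as well as stress regulators. By role, 10 of the members measured above the minimum level are transcription factors or stress regulators, 8 are enzymes of amino acid synthesis, 3 are mitochondrial one-carbon enzymes, 7 are amino acid transporters or their subunits, and 9 are cytosolic tRNA synthetases or the tRNA exporter XPOT.

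The CARE letters searched here were TGATGNAA on both strands, in RefSeq promoter windows (build GRCh38.p14) that run from 250 bases before the annotated start to 50 bases after it. The stricter form TGATGCAA is contained in it. Windows were matched for 29 of the 38 members, and 8 of them (27.6%) held TGATGNAA, against 1003 of all 27305 promoter windows (3.67%). TGATGCAA was present in 4 member windows (13.8%), against 252 of all windows (0.923%). In the lists of related genes followed below, TGATGNAA was held by 2 of 7 matched windows of other cytosolic tRNA synthetases. It was held by 2 of 10 of other amino acid synthesis enzymes, 2 of 16 of other amino acid transporters and 2 of 19 of other ATF4 targets. Each remaining list had at most 1, so the letters do not set the members apart from all related genes. A match is a stretch of letters and not a measured binding site. Of the 3 enzymes that fell with HAND1 sgRNA, ASNS held the letters, MTHFD2 did not, and PYCR1 had no matched window. The stretches that hold the letters before the start are shown because they belong to the asparagine synthetase gene ASNS, the member with the firmest difference below, and to 3 further members. They are written 5′ to 3′ on the strand of the gene, with the match in capitals. Positions count from the start base as 0. The match lies at −68 to −61 in ASNS, at −191 to −184 in ATF3, at −209 to −202 in CHAC1 and at −187 to −180 in AARS. The stretches are chr7:97872439-97872506 on the minus strand for ASNS, chr1:212565186-212565253 on the plus strand for ATF3, chr15:40953232-40953299 on the plus strand for CHAC1, and chr16:70289656-70289723 on the minus strand for AARS.
ASNS: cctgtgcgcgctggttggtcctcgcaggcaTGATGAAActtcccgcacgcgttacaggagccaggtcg
ATF3: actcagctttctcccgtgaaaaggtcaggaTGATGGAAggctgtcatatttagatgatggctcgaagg
CHAC1: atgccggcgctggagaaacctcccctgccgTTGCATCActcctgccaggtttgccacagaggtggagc
AARS: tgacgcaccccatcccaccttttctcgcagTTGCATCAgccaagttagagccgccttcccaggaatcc

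In the other 4 members the letters overlap or follow the annotated start. They are shown to let the matches be compared across members. The stretches are chr11:3057408-3057435 on the minus strand for CARS, chr18:57621805-57621832 on the minus strand for NARS, chr13:29595664-29595691 on the minus strand for SLC7A1, and chr11:62881726-62881748 on the plus strand for SLC3A2. In CHAC1, AARS, CARS and SLC3A2 the motif reads on the opposite strand to the gene, so its reverse complement is in capitals.
CARS: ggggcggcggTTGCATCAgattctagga
NARS: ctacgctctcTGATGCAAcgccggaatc
SLC7A1: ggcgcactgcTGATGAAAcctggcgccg
SLC3A2: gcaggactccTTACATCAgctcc

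Both targets were low in the libraries that carry their labels. ETV1 averaged 11.4 ± 0.571 FPKM with ETV1 sgRNA and 39.7 ± 2.42 FPKM with Luciferase sgRNA (SD, n = 3 each), where FPKM is fragments scaled to transcript length and library size. HAND1 averaged 38.3 ± 2.25 FPKM with HAND1 sgRNA and 114 ± 1.12 FPKM with Luciferase sgRNA (SD, n = 3 each). With ETV1 sgRNA, HAND1 averaged 132 ± 2.26 FPKM (SD, n = 3), above all controls, at an adjusted p of 0.244 in limma. With HAND1 sgRNA, ETV1 averaged 40.8 ± 0.960 FPKM (SD, n = 3) and overlapped the controls. The libraries' depth, known only relative to Luciferase sgRNA replicate 1, ranged down to 0.637 of it. All 8 GIST and Cajal cell markers averaged at least 1 FPKM over the libraries, KIT, ANO1 and CD34 among them. None of 9 blood and endothelial and none of 6 neuronal and glial markers did, 2 of 6 epithelial markers did (KRT8 and KRT18), and 1 of 3 smooth muscle markers did (ACTG2). Luciferase sgRNA replicate 3 stood apart. Its 388 genes with transcripts under 1000 nucleotides had a median log2(FPKM + 1) that was 0.47 above the other control libraries, while its median over the members was 0.05 above them. The main counts over all members that involve the control are therefore given with and without this library. Counts by role, by promoter letters and by list use all libraries unless stated otherwise. In bulk RNA, fewer cells of a type and less RNA per cell cannot be told apart.

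The members spanned a wide range of levels in these cells, for which no stress is labelled. Over the 9 libraries the glutamine transporter SLC1A5 averaged 461 FPKM, ATF4 189, the mitochondrial serine hydroxymethyltransferase SHMT2 171, the alanyl-tRNA synthetase AARS 159, the mitochondrial methylenetetrahydrofolate dehydrogenase MTHFD2 115 and the proline synthesis enzyme PYCR1 105. At the other end were the one-carbon enzyme ALDH1L2 (2.11 FPKM), the cystathionine cleaving enzyme CTH (1.59) and the stress factor ATF3 (1.37). VLDLR, a lipoprotein receptor, averaged 0.178 FPKM and was the 1 member below the minimum mean of 1 FPKM, so 37 members were tested. ATF3, the glutathione-degrading enzyme CHAC1 (2.79 FPKM), the cystine transporter SLC7A11 (2.29) and the eIF2 phosphatase subunit PPP1R15A (4.65) were also low.

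**Figure D1:**
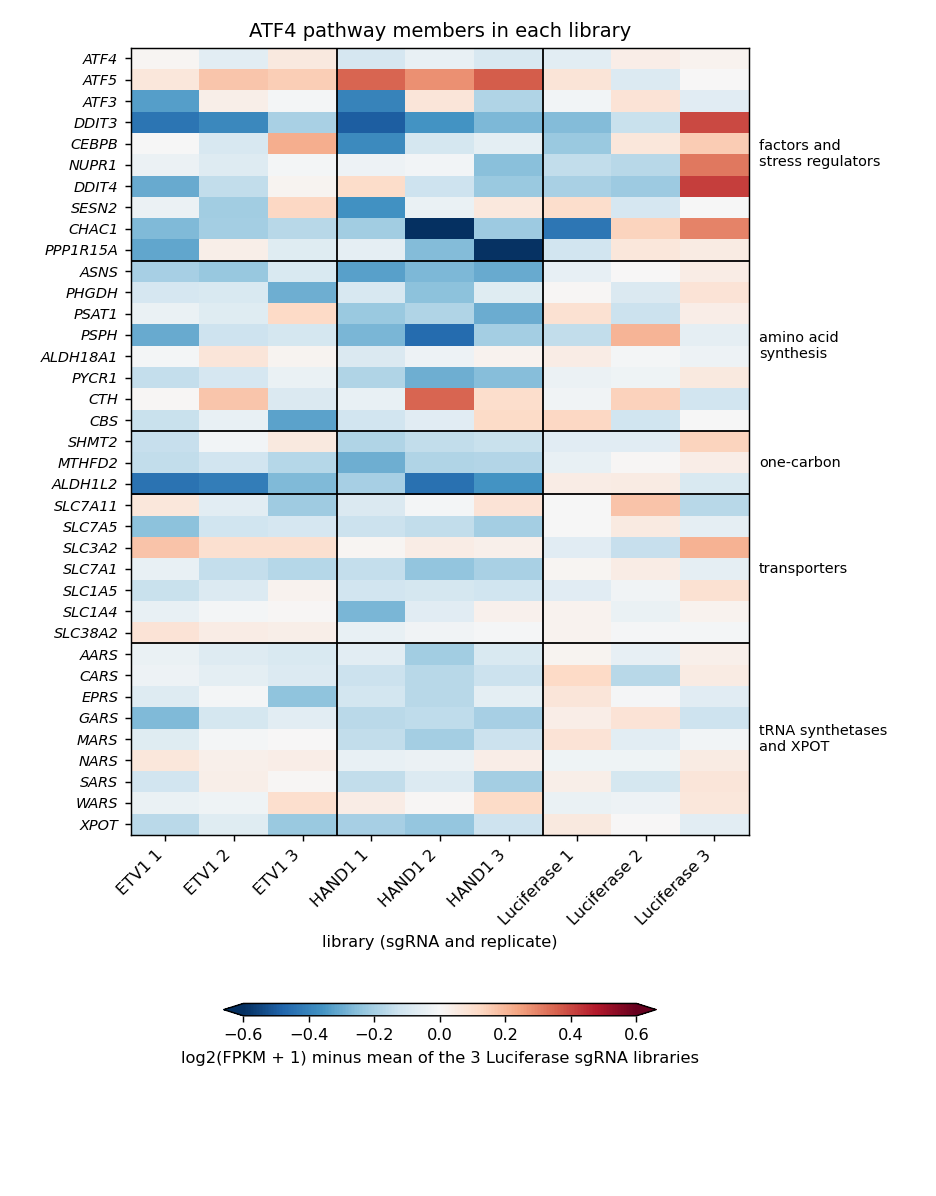
Each row is 1 of the 37 members tested, grouped by role, and each column is 1 library; the colour is log2(FPKM + 1) minus the mean of the 3 Luciferase sgRNA libraries, and values past 0.6 in size take the end colour. The HAND1 sgRNA columns are mostly blue, except ATF5, which is red in all 3 of them; DDIT3, DDIT4 and NUPR1 are red in Luciferase sgRNA replicate 3.

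With HAND1 sgRNA, asparagine synthetase (ASNS), PYCR1 and MTHFD2 fell and the transcription factor ATF5 rose relative to Luciferase sgRNA. These are 4 of the 37 members, where 6.6% of all 11348 genes tested were called. A gene was called at an adjusted p under 0.05 in limma's test on log2(FPKM + 1). Among the 37 members 3 were called lower, where 2.93% of all genes were, and 1 was called higher, where 3.67% of all genes were. The shifts were small and mostly in 1 direction. Of the 37 members, 33 (89.2%) had a difference below 0, against 53.9% of all genes tested, and the median difference of the members was −0.14, against −0.01 over all genes. Related genes outside the members, listed further below, leaned the same way, with 102 of 149 (68.5%) below 0. Without Luciferase sgRNA replicate 3, 3 members were called, where 6.24% of all genes were, 30 were below 0, where 50.8% of all genes were, and the median was −0.11, against −0.00 over all genes. The 6 epithelial markers, of which KRT19 and KRT20 were at 0 throughout and KRT18 made up most, summed to 204 to 220.3 FPKM with HAND1 sgRNA and 227 to 265 FPKM with Luciferase sgRNA. The 3 smooth muscle markers, with DES at 0 in all but 1 library, summed to 0.936 to 2.74 FPKM with HAND1 sgRNA and 0.671 to 0.860 FPKM with Luciferase sgRNA. The part of these markers in the result was not tested.

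ASNS makes asparagine from aspartate and glutamine. Its FPKM was 54.4, 56.6 and 55.4 with HAND1 sgRNA and 66.3, 68.6 and 70.7 with Luciferase sgRNA. The highest HAND1 sgRNA library lay below the lowest control. The log2 difference was −0.30 (SE 0.052, adjusted p = 0.00681 in limma), and the call held in all 18 alternatives, with adjusted p between 0.00651 and 0.0350.

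PYCR1 encodes a pyrroline-5-carboxylate reductase, the last step of proline synthesis. Its FPKM was 100.4, 92.6 and 95.2 with HAND1 sgRNA and 111, 112 and 119 with Luciferase sgRNA. These ranges did not overlap either. The log2 difference was −0.24 (SE 0.054, adjusted p = 0.0241 in limma). It was no longer called when replicate 2 or 3 of HAND1 sgRNA (adjusted p = 0.0910 and 0.0941) or replicate 2 of Luciferase sgRNA (0.0638) was left out.

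MTHFD2 acts in mitochondria on the one-carbon units that serine supplies. Its FPKM was 102, 110.4 and 111 with HAND1 sgRNA and 121, 126 and 129 with Luciferase sgRNA. The groups did not overlap here either. The log2 difference was −0.22 (SE 0.052, adjusted p = 0.0325 in limma). This was the least stable call, kept in 8 of 18 alternatives. Leaving out any 1 of 7 libraries ended it, with an adjusted p of 0.0557 and 0.0515 on removal of replicates 1 and 2 of ETV1 sgRNA, 0.120, 0.0650 and 0.0719 on removal of replicates 1, 2 and 3 of HAND1 sgRNA, and 0.1004 and 0.0532 on removal of replicates 2 and 3 of Luciferase sgRNA.

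ATF5 is a bZIP factor close to ATF4 whose own translation also rises when eIF2 is phosphorylated. Its FPKM was 17.2, 16.2 and 17.3 with HAND1 sgRNA and 14.03, 12.4 and 13.3 with Luciferase sgRNA. Every HAND1 sgRNA value was above every control value. The log2 difference was 0.33 (SE 0.063, adjusted p = 0.0115 in limma). Leaving out replicate 3 of HAND1 sgRNA (adjusted p = 0.0552) or replicate 2 of Luciferase sgRNA (0.0519) ended the call.

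The libraries were not stranded, so reads from overlapping genes cannot be told apart. In a reference annotation of another build, 21.2% of the ATF5 exon bases overlap NUP62 on the opposite strand, and 27.2% of those of MTHFD2 overlap SLC4A5. NUP62 averaged 45.05 ± 2.68 FPKM with HAND1 sgRNA and 46.7 ± 2.43 FPKM with Luciferase sgRNA (SD, n = 3 each), and SLC4A5 averaged 2.07 ± 0.187 FPKM with HAND1 sgRNA and 1.93 ± 0.395 FPKM with Luciferase sgRNA. Neither was called (adjusted p = 0.687 for NUP62 and 0.820 for SLC4A5 in limma). Of the PYCR1 exon bases 15.6% overlap AC145207.4, an antisense gene on the opposite strand that is not analysed here, and 14.1% overlap MYADML2, which averaged 0.0502 FPKM with HAND1 sgRNA and 0.183 FPKM with Luciferase sgRNA. Of the ASNS exon bases 44.6% overlap AC079781.5, a processed transcript on the same strand that is not analysed here.

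**Figure D2:**
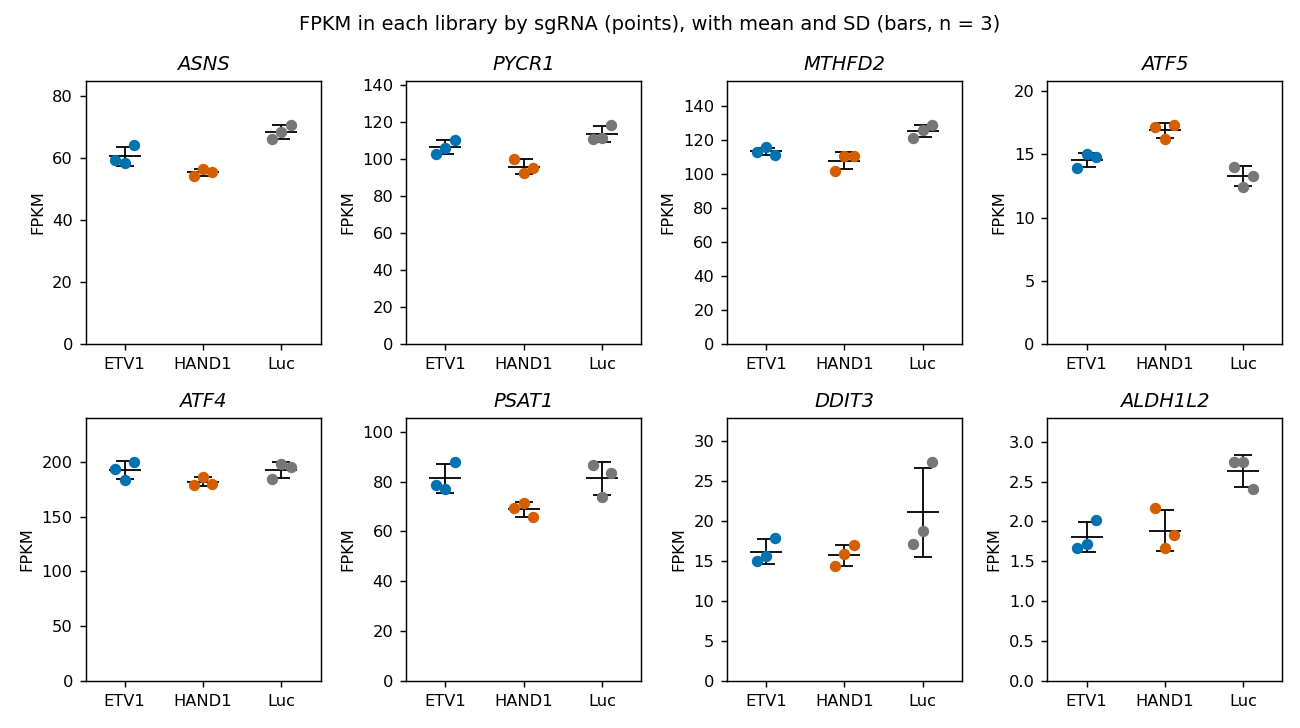
Points are the FPKM of single libraries (vertical axis, from 0) for ETV1, HAND1 and Luciferase (Luc) sgRNA, with the mean as a long bar and 1 SD as the whiskers (n = 3). ASNS, PYCR1 and MTHFD2 lie below the controls in all 3 HAND1 sgRNA libraries and ATF5 lies above them, ATF4 overlaps between the groups, and the highest DDIT3 value is that of Luciferase sgRNA replicate 3.

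Among the transcription factors and stress regulators, ATF5 was the 1 call with HAND1 sgRNA, and 9 of the 10 tested were below 0 with a median of −0.14. ATF4 itself had 179, 186 and 179.8 FPKM with HAND1 sgRNA and 184, 198 and 195 FPKM with Luciferase sgRNA. These ranges overlapped, and the log2 difference of −0.08 (SE 0.054) was not called (adjusted p = 0.448 in limma). DDIT3 (CHOP), a factor of prolonged stress, had 14.3, 15.8 and 16.9 FPKM with HAND1 sgRNA and 17.0, 18.7 and 27.4 FPKM with Luciferase sgRNA. The groups did not overlap, but the highest value by far was that of the control library that stood apart, and the difference of −0.37 was not called (adjusted p = 0.182 in limma). In that library DDIT3 was 0.59 above the mean of the other controls on the log2(FPKM + 1) scale, the mTORC1 inhibitor DDIT4 0.62, the stress-induced cofactor NUPR1 0.48 and CHAC1 0.45. CHAC1 deviated more in another library, by 0.65 in size, so its value there does not stand out as those of DDIT3, DDIT4 and NUPR1 do. The DDIT3 exons also overlap those of the methionyl-tRNA synthetase gene MARS on the opposite strand, over 27.2% of the DDIT3 exon bases.

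CHAC1, ATF3, SESN2 and CEBPB overlapped between the groups. CHAC1 had 2.66, 1.80 and 2.64 FPKM with HAND1 sgRNA and 2.13, 3.65 and 4.21 FPKM with Luciferase sgRNA. ATF3 had 0.897, 1.63 and 1.21 FPKM with HAND1 sgRNA and 1.48, 1.65 and 1.39 FPKM with Luciferase sgRNA. SESN2, a sestrin that inhibits mTORC1, had 7.06, 9.08 and 9.84 FPKM with HAND1 sgRNA and 10.2, 8.67 and 9.35 FPKM with Luciferase sgRNA. Their log2 differences of −0.34 for CHAC1, −0.17 for ATF3 and −0.11 for SESN2 were not called (adjusted p = 0.329, 0.592 and 0.663 in limma). CEBPB, a C/EBP partner of ATF4, averaged 25.8 ± 3.13 FPKM with HAND1 sgRNA and 29.4 ± 4.002 FPKM with Luciferase sgRNA (SD, n = 3 each). PPP1R15A, which directs a phosphatase to eIF2, averaged 4.06 ± 0.925 FPKM with HAND1 sgRNA and 5.17 ± 0.425 FPKM with Luciferase sgRNA (SD, n = 3 each) and was not called (adjusted p = 0.268 in limma).

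Of the 8 enzymes of amino acid synthesis, ASNS and PYCR1 were called lower with HAND1 sgRNA, 7 were below 0, and the median difference was −0.19. The serine pathway has 3 steps, made by PHGDH, PSAT1 and PSPH in that order. PSAT1, the aminotransferase, had 69.3, 71.5 and 65.7 FPKM with HAND1 sgRNA and 86.5, 74.0 and 83.3 FPKM with Luciferase sgRNA. The groups did not overlap, and the difference of −0.23 (SE 0.073) was not called (adjusted p = 0.0930 in limma). PSPH, the phosphatase, averaged 16.6 ± 1.59 FPKM with HAND1 sgRNA and 20.9 ± 2.80 FPKM with Luciferase sgRNA (SD, n = 3 each), also without overlap, and its −0.31 was not called (adjusted p = 0.107 in limma). PHGDH, the dehydrogenase that opens the pathway, averaged 54.6 ± 3.57 FPKM with HAND1 sgRNA and 60.2 ± 3.57 FPKM with Luciferase sgRNA (SD, n = 3 each) and overlapped. ALDH18A1, which stands before PYCR1 in proline synthesis, differed by −0.03, and the transsulfuration enzymes CBS and CTH by −0.02 and 0.14, none of them called.

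All 3 mitochondrial one-carbon enzymes lay below every control with HAND1 sgRNA, with a median of −0.22, and MTHFD2 alone was called. SHMT2, which moves a carbon unit from serine to folate, had 157, 160.35 and 162 FPKM with HAND1 sgRNA and 169.5, 169 and 195 FPKM with Luciferase sgRNA. Its −0.15 was not called (adjusted p = 0.264 in limma). ALDH1L2, a mitochondrial formyltetrahydrofolate dehydrogenase, had 2.16, 1.66 and 1.83 FPKM with HAND1 sgRNA and 2.74, 2.75 and 2.40 FPKM with Luciferase sgRNA. Its −0.33 was called only when the intensity trend was left out of limma (adjusted p = 0.0486), and not as reported here (adjusted p = 0.107).

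No transporter was called with HAND1 sgRNA; 6 of 7 were below 0 and the median was −0.11. The cationic amino acid transporter SLC7A1 (adjusted p = 0.0852 in limma), the large neutral amino acid transporter SLC7A5 (0.127) and SLC1A5 (0.358) lay below all 3 controls, by −0.19, −0.16 and −0.11. SLC7A1 averaged 19.9 ± 0.703 FPKM with HAND1 sgRNA and 22.8 ± 0.838 FPKM with Luciferase sgRNA (SD, n = 3 each). SLC3A2, the heavy chain that SLC7A5 and SLC7A11 share, differed by 0.03, SLC7A11 by −0.00, the neutral amino acid transporter SLC38A2 by −0.02 and the serine and alanine transporter SLC1A4 by −0.11.

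The tRNA synthetases and XPOT gave no call with HAND1 sgRNA either, with 8 of 9 below 0 and a median of −0.14. XPOT, which carries tRNA out of the nucleus, averaged 77.7 ± 3.00 FPKM with HAND1 sgRNA and 88.5 ± 3.81 FPKM with Luciferase sgRNA (SD, n = 3 each), a difference of −0.19 (adjusted p = 0.0924 in limma). MARS averaged 85.0 ± 2.39 FPKM with HAND1 sgRNA and 95.2 ± 5.04 FPKM with Luciferase sgRNA (SD, n = 3 each), a difference of −0.16 (adjusted p = 0.114 in limma). AARS and the glycyl-tRNA synthetase GARS also lay below all controls, while those for cysteine (CARS, −0.14), serine (SARS, −0.14), glutamate and proline (EPRS, −0.11) and asparagine (NARS, −0.01) overlapped. WARS, for tryptophan, was the 1 above 0, at 0.05. In all, 15 of the 37 members had all 3 HAND1 sgRNA values below all 3 control values, where 12.7% of all genes did, and 1 had them all above, where 13% did. Without Luciferase sgRNA replicate 3 these counts were 16 and 3, where 19.2% and 19.3% of all genes did so. At an unadjusted p under 0.05 there were 14 members, 13 of them lower, where 20.3% of all genes passed and 9.83% did so downwards. Without Luciferase sgRNA replicate 3 there were 13, 11 of them lower. Of all genes 20.1% then passed, and 1060 of 11340 did so downwards.

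**Figure D3:**
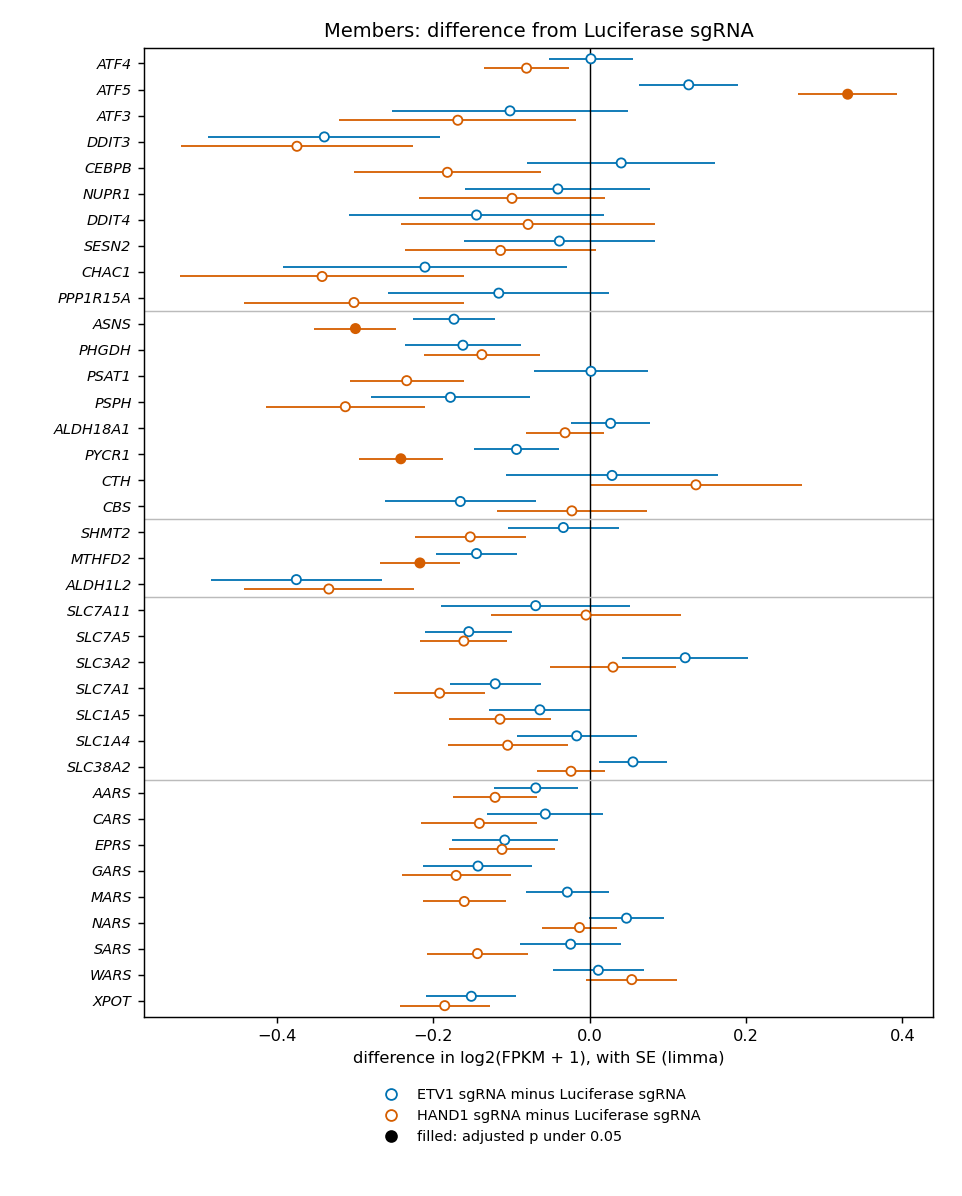
Circles are the differences in log2(FPKM + 1) from Luciferase sgRNA (horizontal axis) for ETV1 sgRNA and HAND1 sgRNA, with bars of 1 SE from limma, for the 37 members grouped by role; filled circles have an adjusted p under 0.05. The 4 filled circles are HAND1 sgRNA values of ATF5, ASNS, PYCR1 and MTHFD2, and both sets share the same 3 control libraries.

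With ETV1 sgRNA no member was called against Luciferase sgRNA, where 0.203% of all genes were (23 of 11348) and 0.0617% were called lower. The smallest adjusted p among the members was 0.362 in limma. At an unadjusted p under 0.05 there were 6 members, where 8.2% of all genes passed. All 6 were lower, where 3.6% of all genes were, and they were ALDH1L2, ASNS, MTHFD2, SLC7A5, XPOT and DDIT3. Below 0 were 27 of 37 (73.0%), against 53.1% of all genes, and the median was −0.07, against −0.01 over all genes. Without Luciferase sgRNA replicate 3 these became 24 of 37, against 48.7% of all genes, and a median of −0.04, against 0.00. Again no member was called, where 0.247% of all genes were, and 8 had an unadjusted p under 0.05, 1 of them higher, where 10.1% of all genes passed. The 9 blood and endothelial markers, each under 1 FPKM on average, summed to 1.94 to 6.16 FPKM with ETV1 sgRNA and 0.996 to 1.67 FPKM with Luciferase sgRNA, and their part in the result was not tested. Most of the 6.16 FPKM was HBB, at 3.59 FPKM in ETV1 sgRNA replicate 1, where replicates 2 and 3 had 0 and 0.678 FPKM.

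ASNS had 59.5, 58.4 and 64.1 FPKM with ETV1 sgRNA, all below the lowest control value of 66.3 FPKM given above. The difference of −0.17 (SE 0.052) was not called (adjusted p = 0.381 in limma). MTHFD2 had 113, 116 and 111 FPKM with ETV1 sgRNA, also below all controls (−0.14, adjusted p = 0.482 in limma). ALDH1L2 had 1.67, 1.72 and 2.01 FPKM with ETV1 sgRNA, below all controls as well (−0.38, adjusted p = 0.362 in limma). PYCR1, with 103, 106 and 111 FPKM, PHGDH, SLC7A5 and XPOT completed the 7 members whose ETV1 sgRNA values all lay below the control values, where 6% of all genes did. SLC38A2 was the 1 member with all values above, where 6.88% of all genes were, by 0.06. Without Luciferase sgRNA replicate 3 these counts were 10 below and 4 above, where 12.5% and 14.2% of all genes did so.

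ATF4 had 194, 184 and 200.2 FPKM with ETV1 sgRNA, which overlapped the controls (0.00, SE 0.054). PSAT1, with 78.8, 77.1 and 88.0 FPKM, overlapped them as well (0.00, SE 0.073). DDIT3 had 14.9, 15.5 and 17.9 FPKM with ETV1 sgRNA and overlapped the controls (−0.34, adjusted p = 0.591 in limma). CHAC1 had 2.52, 2.68 and 2.78 FPKM, ATF3 0.992, 1.57 and 1.48 FPKM and SESN2 9.14, 7.99 and 10.3 FPKM with ETV1 sgRNA, all within or across the control range. ATF5 had 13.9, 14.98 and 14.7 FPKM with ETV1 sgRNA and overlapped the controls (0.13, adjusted p = 0.665 in limma). By role the medians with ETV1 sgRNA were −0.07 for factors and stress regulators (7 of 10 below 0), −0.13 for amino acid synthesis (5 of 8), −0.14 for one-carbon enzymes (3 of 3), −0.06 for transporters (5 of 7) and −0.06 for tRNA synthetases and XPOT (7 of 9). Without Luciferase sgRNA replicate 3 the factors and stress regulators had a median of −0.01, with 5 of 10 below 0.

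The comparisons of ETV1 sgRNA and of HAND1 sgRNA with Luciferase sgRNA share their control libraries, so the direct comparison bears on whether the members differed between them. Between HAND1 sgRNA and ETV1 sgRNA no member was called, where 4.05% of all genes were (460 of 11348) and 2.04% were called lower, and the smallest adjusted p was 0.123 in limma. At an unadjusted p under 0.05 there were 5 members, where 15.4% of all genes passed. PSAT1 (−0.24), PYCR1 (−0.15), MARS (−0.13) and ASNS (−0.13) were the 4 lower ones, where 7.69% of all genes were, and ATF5 (0.20) was higher. Below 0 were 29 of 37 (78.4%), against 51.1% of all genes, with a median of −0.07 against −0.00. In 8 members all HAND1 sgRNA values lay below all ETV1 sgRNA values, where 11.5% of all genes did, and in 1 (ATF5) above, where 10.9% did. ASNS, PYCR1, MTHFD2 and ATF5, called with HAND1 sgRNA against the control, are thus not shown to differ between HAND1 sgRNA and ETV1 sgRNA (adjusted p = 0.278, 0.206, 0.588 and 0.127 in limma).

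**Figure D4:**
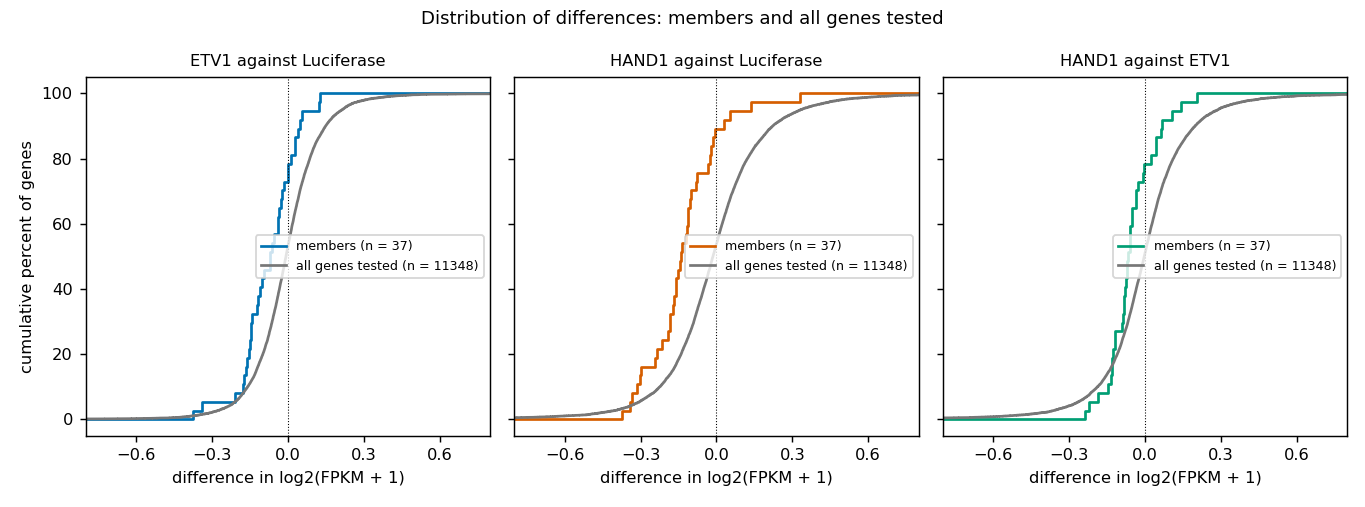
Lines are cumulative percents (vertical axis) of the 37 members and of all 11348 genes tested at or below each difference in log2(FPKM + 1) (horizontal axis, −0.8 to 0.8 shown), for the 3 comparisons. At a difference of 0 the member line stands at 73.0%, 89.2% and 78.4%, above the line of all genes at 53.1%, 53.9% and 51.1%.

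The differences were also set out by the CARE letters in the promoter window. With HAND1 sgRNA the 8 that hold TGATGNAA had a median of −0.16 (7 below 0, 1 called, ASNS), and the 20 matched and tested members without it had a median of −0.11 (17 below 0, 2 called, MTHFD2 and ATF5). With ETV1 sgRNA the medians were −0.09 for the 8 members with the letters and −0.05 for the 20 without. Between HAND1 sgRNA and ETV1 sgRNA they were −0.08 (8 of 8 below 0) and −0.04 (14 of 20 below 0). The search covered 1 form of the letters in 1 window, so a member without them is not shown to lack a CARE.

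Around the members, 170 further genes in 9 lists were followed, of which 149 were tested. Only 1 list is of other ATF4 targets. The rest hold related enzymes, transporters, tRNA synthetases, upstream machinery and neighbouring stress branches. With HAND1 sgRNA 11 were called (3 higher, 8 lower), where 6.6% of all genes were, and the median was −0.07. With ETV1 sgRNA none was called, where 0.203% of all genes were, and the median was −0.03, against −0.01 over all genes. At an unadjusted p under 0.05 there were 12 (6 higher, 6 lower), or 8.05%, where 8.2% of all genes passed. Without Luciferase sgRNA replicate 3 the median with ETV1 sgRNA was −0.00. Without any 1 of HAND1 sgRNA replicates 1, 2 and 3 or Luciferase sgRNA replicate 2 the count of 11 dropped to 5, 5, 6 and 5.

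Among 20 other ATF4 targets 5 were called with HAND1 sgRNA, 3 higher and 2 lower, where 3.67% and 2.93% of all genes were. STC2, a secreted glycoprotein, had 3.70, 3.69 and 3.48 FPKM with HAND1 sgRNA and 24.3, 21.9 and 28.2 FPKM with Luciferase sgRNA (−2.47, adjusted p = 2.07e-07 in limma). With ETV1 sgRNA it had 18.8, 19.2 and 18.9 FPKM, also below the controls but not called (−0.36, adjusted p = 0.220 in limma). EIF4EBP1, a repressor of cap-dependent translation, fell to 78.7 ± 4.11 FPKM with HAND1 sgRNA, against 104 ± 13.9 FPKM with Luciferase sgRNA (SD, n = 3 each; adjusted p = 0.0262 in limma). That call was lost without any 1 of 5 libraries, namely HAND1 sgRNA replicates 1, 2 and 3 (adjusted p = 0.0632, 0.0630 and 0.108) and Luciferase sgRNA replicates 2 and 3 (0.0972 and 0.0516).

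The stress cytokine GDF15 had 11.4, 13.5 and 11.7 FPKM with HAND1 sgRNA and 7.02, 8.999 and 8.76 FPKM with Luciferase sgRNA. It rose by 0.52 on the log2(FPKM + 1) scale (adjusted p = 0.0125 in limma, and 0.0559 without HAND1 sgRNA replicate 2). OSGIN1, an oxidative stress-induced growth inhibitor, rose to 14.8 ± 0.558 FPKM with HAND1 sgRNA, against 10.3 ± 0.411 FPKM with Luciferase sgRNA (SD, n = 3 each; adjusted p = 0.0145 in limma). That call was lost without HAND1 sgRNA replicate 1 (0.0612), HAND1 sgRNA replicate 2 (0.0531) or Luciferase sgRNA replicate 2 (0.0571). MAP1LC3B, an autophagy protein named here after its values were seen, rose by 0.22 (adjusted p = 0.0292 in limma), a call lost without HAND1 sgRNA replicates 1, 2 or 3 (0.0509, 0.106 and 0.0954) or Luciferase sgRNA replicate 2 (0.109). TRIB3, a feedback inhibitor of ATF4 also named after its values were seen, had 37.0, 34.5 and 33.6 FPKM with HAND1 sgRNA and 39.0, 43.2 and 41.4 FPKM with Luciferase sgRNA, below all controls but not called (−0.23, adjusted p = 0.0830 in limma).

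Enzymes beyond the members gave 3 calls that held in every alternative that could be run. RARS, the arginyl-tRNA synthetase, had 50.04, 53.3 and 50.8 FPKM with HAND1 sgRNA and 66.2, 62.0 and 63.0 FPKM with Luciferase sgRNA (−0.30, adjusted p = 0.00461 in limma). GLDC, the glycine decarboxylase of the glycine cleavage system, had 1.15, 1.71 and 1.77 FPKM with HAND1 sgRNA and 4.39, 3.58 and 4.91 FPKM with Luciferase sgRNA (−1.06, adjusted p = 0.00218 in limma). ARG2, the mitochondrial arginase, had 26.02, 26.4 and 26.3 FPKM with HAND1 sgRNA and 33.4, 34.7 and 36.4 FPKM with Luciferase sgRNA (−0.39, adjusted p = 0.00163 in limma). All 3 were also lower with HAND1 sgRNA than with ETV1 sgRNA, by −0.33, −0.95 and −0.43 (adjusted p = 0.00430, 0.00572 and 0.00135 in limma). STC2 (−2.11), GDF15 (0.59) and OSGIN1 (0.47) made up the 6 list genes called between HAND1 sgRNA and ETV1 sgRNA. That is 4.03% of the list genes tested, where 4.05% of all genes were called. The OSGIN1 call there (adjusted p = 0.0230 in limma) was lost without ETV1 sgRNA replicates 1 or 2 (0.0786 and 0.0917) or HAND1 sgRNA replicates 1, 2 or 3 (0.0966, 0.0796 and 0.0627).

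The median of 13 other amino acid transporters was −0.12 with HAND1 sgRNA. Of them 3 fell, where 2.93% of all genes were called lower. They were the glutamine transporter SLC38A1 (29.8 ± 1.05 with HAND1 sgRNA and 36.3 ± 2.43 FPKM with Luciferase sgRNA, adjusted p = 0.0239 in limma), the branched-chain amino acid transporter SLC43A1 (1.56 ± 0.126 with HAND1 sgRNA and 2.85 ± 0.584 FPKM with Luciferase sgRNA, 0.0268) and the glycine transporter SLC6A9 (4.11 ± 0.0785 with HAND1 sgRNA and 5.97 ± 0.750 FPKM with Luciferase sgRNA, 0.0290; SD, n = 3 each). Each was lost without any 1 of HAND1 sgRNA replicates 1, 2 and 3 and Luciferase sgRNA replicate 2. The adjusted p values were then 0.0586, 0.0909, 0.0666 and 0.0588 for SLC38A1, 0.0578, 0.0825, 0.0944 and 0.0959 for SLC43A1, and 0.0747, 0.0878, 0.0927 and 0.0903 for SLC6A9. SLC38A1 was also lost without Luciferase sgRNA replicate 1 (0.0715), and SLC43A1 and SLC6A9 without Luciferase sgRNA replicate 3 (0.0537 and 0.0819).

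The upstream machinery and neighbouring stress branches gave no call with HAND1 sgRNA. The list for eIF2, its kinases, its exchange factor and its phosphatase also holds EIF2A, DNAJC3, IMPACT and GCN1L1. None of its 20 genes was called, none had an unadjusted p under 0.05, and their median was −0.05. None of 25 endoplasmic reticulum chaperones and unfolded protein response genes was called (7 at an unadjusted p under 0.05, 3 higher and 4 lower), with a median of 0.04. Neither was any of 16 mitochondrial tRNA synthetases (4 at an unadjusted p under 0.05, median −0.08) or of 12 glutathione and NRF2 genes (3 at an unadjusted p under 0.05, median −0.03). The shares of chaperone, mitochondrial synthetase and NRF2 genes at an unadjusted p under 0.05 were 28%, 25% and 25%, where 20.3% of all genes passed. Larger shares were those of other amino acid synthesis enzymes (50%), other ATF4 targets (45%), other cytosolic tRNA synthetases (36.4%) and other amino acid transporters (30.8%). The other serine, glycine and one-carbon enzymes had 16.7%. Without Luciferase sgRNA replicate 3, 1 chaperone gene was called lower and 1 mitochondrial synthetase gene higher. The medians of the lists with 1 call each were −0.08 for 11 other cytosolic tRNA synthetases, −0.04 for 18 other serine, glycine and one-carbon enzymes and −0.06 for 14 other amino acid synthesis enzymes, against −0.14 for the members and −0.14 for the other ATF4 targets. Of the other ATF4 targets, however, 13 of 20 (65%) were below 0, against 89.2% of the members, and their differences ran from −2.47 to 0.52. Below 0 were also 10 of 11 other cytosolic tRNA synthetases (90.9%), 16 of 20 eIF2 list genes (80%) and 10 of 13 other amino acid transporters (76.9%). The mitochondrial synthetases and the glutathione and NRF2 genes each had 75%, and the chaperone genes had the lowest share, 44%. A lean below 0 was thus not particular to the members. Without Luciferase sgRNA replicate 3 the median was −0.11 for the members and −0.08 for the other ATF4 targets. The single calls were 9.09%, 5.56% and 7.14% of their lists, where 6.6% of all genes were called.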

How the data were processed

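The authors deposited FPKM values, 1 per gene and library; the tools STAR and Cufflinks and the build hg19 are listed per the submitters' processing notes, with versions, annotation and scaling not given in the sources used here. An RNeasy Plus kit gave the RNA and a non-stranded NEBNext Ultra II kit the libraries, per the labels' protocols. No read counts are given, so absolute depth is unknown and no count model was used. Relative depth came from the most frequent ratio between libraries among values of 0.001 to 0.1 FPKM. Of 23610 genes, the 11348 whose mean over the libraries reached 1 FPKM were tested on log2(FPKM + 1), pseudocount 1, with limma 3.58.1 in R 4.3.3. Group was the only term, all 9 libraries entered the fit, an intensity trend was used, and the degrees of freedom were 6 (residual) and 4.15 (prior). Each test was two-sided, with Benjamini-Hochberg adjustment over all genes tested and a threshold of 0.05. The fit was also run on simulated data with independent noise and planted differences larger than any of the members. That run therefore does not bear on calls of the size reported here. Differences on this scale understate the change of low genes. The members, lists and roles were chosen with earlier results of these data known. Members called in any comparison, ATF4, ATF3, DDIT3, CHAC1, SESN2, ASNS and PSAT1 are given by library, and from each list up to 4 called genes with the smallest adjusted p. Transcript lengths, found for 93.0% of the genes tested, and exon overlaps were read from an annotation of a different build. Promoter windows came from RefSeq, GRCh38.p14. There were 18 alternatives: pseudocount 0.1 or 5, no filter or a mean of 5 FPKM, quantile normalization, centring on the median of genes that reach 10 FPKM, no trend, only the 2 groups compared, a replicate block, and each library left out.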

Additional observations from a re-analysis of the deposited data

How the results depend on the processing

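With HAND1 sgRNA against Luciferase sgRNA, 4 members were called as reported, 2 with quantile normalization, 2 with only the 2 groups compared, and 1 to 4 when a library was left out (2 without HAND1 sgRNA replicate 2, 1 without HAND1 sgRNA replicate 3, 1 without Luciferase sgRNA replicate 2). The 11 calls among the list genes became 5 to 12 when a library was left out. With ETV1 sgRNA no member and no list gene was called under any of the 18 alternatives, and between HAND1 sgRNA and ETV1 sgRNA no member was. No called difference changed its direction. The median over the members stayed between −0.16 and −0.11 with HAND1 sgRNA, between −0.08 and −0.04 with ETV1 sgRNA, and between −0.07 and −0.04 between HAND1 sgRNA and ETV1 sgRNA. ASNS kept its call in 18 of 18 alternatives, ATF5 in 16, PYCR1 in 13 and MTHFD2 in 8. Besides the libraries named above, PYCR1 lost it with quantile normalization (adjusted p = 0.0855 in limma) and with only the 2 groups compared (0.0595), and MTHFD2 with these (0.136 and 0.0853) and without the intensity trend (0.0624). Of the list genes, SLC38A1 lost its call with median centring (0.0593), quantile normalization (0.0537) and only the 2 groups compared (0.0552). EIF4EBP1 (0.0689) and MAP1LC3B (0.0689) lost theirs with only the 2 groups compared, and MAP1LC3B without the trend (0.0593). Without the filter SLC43A1 (0.0516), SLC6A9 (0.0623) and EIF4EBP1 (0.0571) lost theirs, as did OSGIN1 against ETV1 sgRNA (0.0523). The cause was not tested. Low levels limit ATF3, CTH and ALDH1L2 most, since depth is known only in relative terms.

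Same-numbered libraries correlated from −0.146 to 0.138 in their deviations from the group means, below 0.1 in most pairs, so the numbers were not taken to pair the libraries. With the replicate block, 4 members and 10 list genes were called with HAND1 sgRNA against Luciferase sgRNA, 0 and 0 with ETV1 sgRNA against Luciferase sgRNA, and 0 and 5 with HAND1 sgRNA against ETV1 sgRNA. Under the block EIF4EBP1 (adjusted p = 0.0532 in limma), SLC43A1 (0.0510) and MAP1LC3B (0.0623) were no longer called against Luciferase sgRNA, nor OSGIN1 (0.0518) against ETV1 sgRNA, so the 10 are not all among the 11 called as reported.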
